A study of Rattus norvegicus with 4 samples.

Results

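Genes of cholesterol and fatty acid synthesis were followed in retinal neurospheres of the rat, which are free-floating clusters grown from dissociated retinal cells. The set held 32 genes picked by their textbook role, from the mevalonate pathway through the sterol steps to the fatty acid desaturases, with their regulators and a pair of sterol carriers. Of these, 31 had a probe set annotated with a single gene symbol, among 14218 such genes on the array, and each was read from its brightest probe set over all 4 arrays. Hmgcs1 had no such probe set and was not analysed here. All 31 passed the limit for dim probe sets (4.77 log2) and were among the 11492 genes tested.

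The 2 groups came from pooled Sprague Dawley embryos at embryonic day 18. Neurospheres of the conditioned-medium group grew with epidermal growth factor (EGF) plus medium conditioned by endothelial cells, whose source is not given in the sources used here. Neurospheres of the EGF group grew with EGF alone, so both groups received the growth factor. Each group had 2 arrays of an Affymetrix rat expression platform, labelled as biological replicates 1 and 2. The question the comparison addresses is what the endothelial medium adds to EGF. Neurospheres are mixed cultures, so fewer cells of a type and less RNA per cell cannot be told apart in any value below.

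Cholesterol is built from acetyl-CoA through mevalonate, farnesyl pyrophosphate, squalene and lanosterol, and fatty acids are built from the same precursor by acetyl-CoA carboxylase and fatty acid synthase. Sterol regulatory element binding proteins (SREBPs) switch on most genes of both pathways: when sterols are low, the escort protein Scap carries them out of the endoplasmic reticulum, and when sterols are high the Insig proteins hold them back. Because of this shared control the pathway genes often move together. The retina makes part of its own cholesterol, and its membranes are rich in polyunsaturated lipids.

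As deposited, the arrays were not on 1 scale: their medians were 6.56 to 6.84 log2 with conditioned medium and 6.03 to 6.25 log2 with EGF alone. Values below are therefore log2 signals after quantile normalization, a difference is conditioned medium minus EGF, and a gene is said to have risen or fallen only if it passed limma's threshold (Benjamini-Hochberg adjusted p under 0.05 over all 11492 genes) in the same direction after quantile normalization, as deposited and with median-centred arrays. Retinal genes were expressed in both groups, and the mean level of 9 retinal progenitor markers was 11.35 and 11.30 log2 with conditioned medium and 10.89 and 10.97 log2 with EGF. Markers moved with the condition, where 9.12% of all genes tested rose and 1.78% fell. Of these 9 progenitor markers 4 rose (Six6, Sfrp2, Ccnd1 and Hes1), as did 3 of 7 tested Muller glia markers (Clu, Vim and Slc1a3). After quantile normalization the progenitor marker Rax (-0.24 log2) and the Muller glia marker Rlbp1 (-0.70 log2) were lower. Of the other lists 7 of 10 microglia markers, 8 of 9 mesenchymal markers and 2 of 6 endothelial markers rose, while 7 of 9 photoreceptor markers fell. The gap between 3' and 5' actin control probe sets, which widens as RNA degrades, was 1.37 to 1.54 log2 with conditioned medium and 1.99 to 2.08 log2 with EGF. The part of these shifts in the results below was not tested.

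The synthesis genes moved little as a set. After quantile normalization 4 of the 31 members were higher with conditioned medium, namely the stearoyl-CoA desaturase Scd, the cholesterol exporter Abca1, the desaturase Fads2 and the terminal sterol reductase Dhcr7, against 16.5% of all genes tested. Lower were 2 of 31, the sterol-pathway reductase Hsd17b7 and the ATP citrate lyase Acly, against 14.6% of all genes. Scd alone rose under all 3 scalings, where 9.12% of all genes rose, and 0 members fell, where 1.78% of all genes fell. The unadjusted intervals of 10 members left out 0. The median difference of the 31 members was -0.00 log2, with 17 below 0. Over all genes it was 0.00 log2, with 5697 of 11492 below 0. A difference of at least 0.5 log2 in either direction was seen in 1 of 31 members and in 19.2% of all genes.

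The precision behind these counts differed between genes. The 95% interval of limma's difference lay within 0.5 log2 of 0 for 27 of the 31 members and within 1 log2 for all 31, with the widest bounds at -0.65 log2 for Hsd17b7 and 0.91 log2 for Scd. Members differed between 2 arrays of opposite conditions by an SD of 0.22 to 0.25 log2, against 0.45 to 0.47 log2 over all genes tested. Between the 2 arrays of a condition the members' SD was 0.12 log2 with conditioned medium and 0.14 log2 with EGF, against 0.21 log2 (conditioned medium) and 0.25 log2 (EGF) over all genes. The members varied less than the other genes within the conditions as well as between them. Their probe sets were also brighter, with a median signal of 9.71 log2 as deposited against 8.59 log2 over all genes, and the part of brightness in this was not tested.

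**Figure D1:**
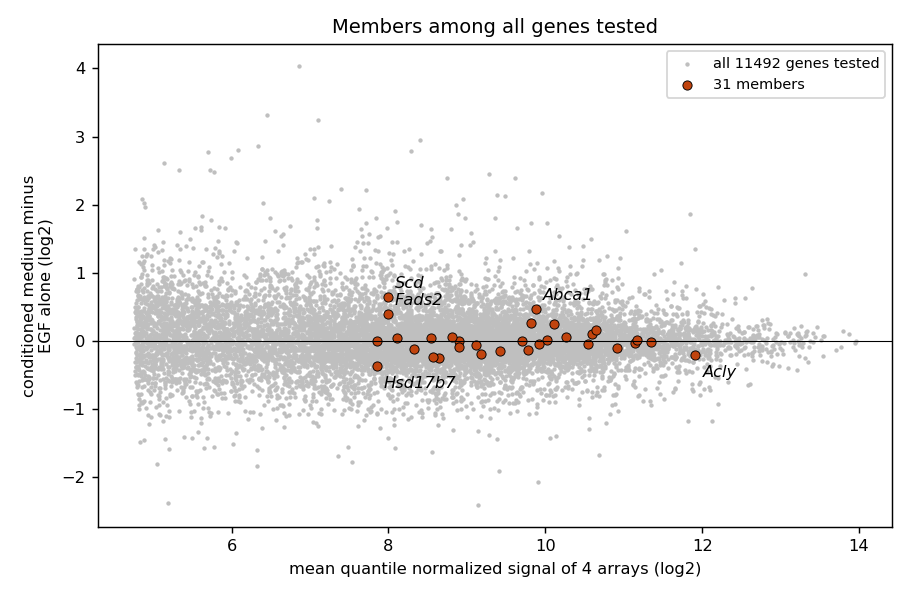
Difference between conditioned medium and EGF alone (vertical axis, log2) against the mean signal of the 4 arrays (horizontal axis, log2), both quantile normalized, for all 11492 genes tested (grey) and the 31 members (orange). The members lie in a narrow band around 0, from -0.37 log2 for Hsd17b7 to 0.65 log2 for Scd.

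The scaling of the arrays decided which way most of these small differences pointed. As deposited, all 31 members lay above 0 with a median of 0.32 log2. Of all 11492 genes 10251 lay above 0, and their median was itself 0.40 log2. With median-centred arrays 27 of 31 members lay below 0, as did 7717 of the 11492 genes. The medians were -0.25 log2 for the members and -0.16 log2 over all genes. Calls followed: as deposited 7 members were higher and 0 lower (40.4% and 1.78% of all genes), and with median-centred arrays 1 was higher and 14 lower (10.2% and 32.2% of all genes). The direction of the set as a whole was thus not settled by these arrays. Of the 6 members called after quantile normalization, Dhcr7, Fads2, Hsd17b7 and Acly lost the call whichever 1 of the 4 arrays was left out, and Abca1 kept it only when EGF replicate 1 was left out (0.60 log2, limma adjusted p = 0.019). Without 1 array their differences were 0.26 to 0.27 log2 for Dhcr7, 0.31 to 0.47 log2 for Fads2, 0.32 to 0.60 log2 for Abca1, -0.51 to -0.24 log2 for Hsd17b7 and -0.24 to -0.17 log2 for Acly.

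**Figure D2:**
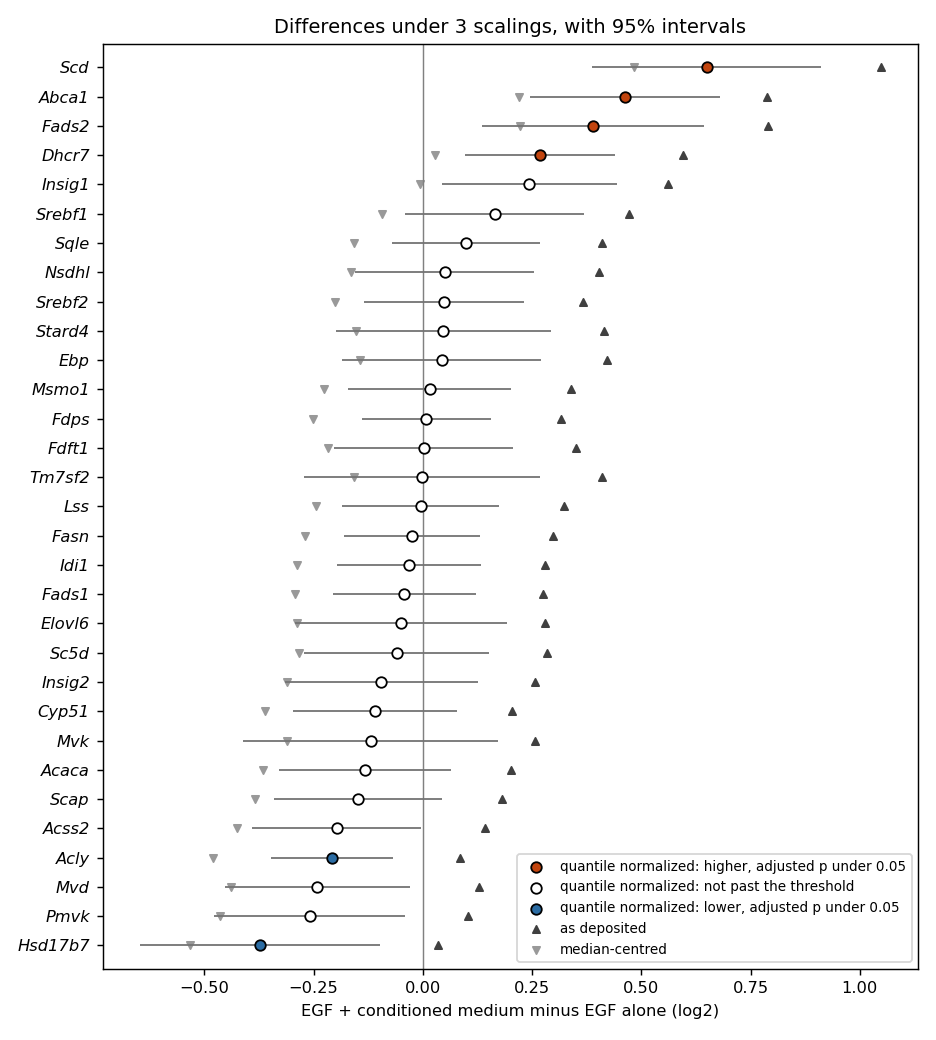
Difference between conditioned medium and EGF alone (horizontal axis, log2) for each member, sorted by the quantile normalized value. Circles with 95% intervals are quantile normalized values, filled where adjusted p was under 0.05, and triangles are the same differences as deposited (pointing up) and with median-centred arrays (pointing down). Scd is the gene whose 3 values all passed the threshold above 0.

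The mevalonate steps turn acetyl-CoA units into the isoprenoid farnesyl pyrophosphate, and 0 of the 5 measured genes passed the threshold after quantile normalization. Mevalonate kinase Mvk had 8.23 and 8.30 log2 with conditioned medium and 8.18 and 8.59 log2 with EGF, so that the EGF arrays enclosed the others. Phosphomevalonate kinase, Pmvk, had 8.59 and 8.45 log2 with conditioned medium and 8.81 and 8.74 log2 with EGF. The decarboxylase Mvd, which makes isopentenyl pyrophosphate, had 8.49 and 8.41 log2 with conditioned medium and 8.68 and 8.70 log2 with EGF. For Pmvk and Mvd the groups did not overlap, and the differences of -0.26 ± 0.10 and -0.24 ± 0.10 log2 (SE) had limma adjusted p = 0.070 and 0.081. Both were lower with median-centred arrays and neither passed as deposited.

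The next enzymes of the branch are among the most strongly SREBP-driven genes known, and the values of their brightest probe sets hardly separated. The isomerase Idi1 had 11.12 and 11.13 log2 with conditioned medium and 11.08 and 11.24 log2 with EGF. Farnesyl pyrophosphate synthase, Fdps, had 11.20 and 11.16 log2 with conditioned medium and 11.15 and 11.20 log2 with EGF. In both the groups overlapped, and the intervals ran from -0.20 to 0.13 log2 for Idi1 and from -0.14 to 0.16 log2 for Fdps. A second Idi1 probe set, with a mean of 10.06 log2 as deposited, gave -0.30 log2. Its groups did not overlap, at 9.88 and 9.93 log2 with conditioned medium and 10.24 and 10.17 log2 with EGF.

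Squalene synthase Fdft1, squalene epoxidase Sqle and lanosterol synthase Lss commit carbon to sterols. Sqle, a flux-controlling oxygenase, had 10.58 and 10.72 log2 with conditioned medium and 10.54 and 10.56 log2 with EGF. Its groups did not overlap, but the difference of 0.10 ± 0.08 log2 (SE) was within the replicate error (limma adjusted p = 0.35, interval -0.07 to 0.27 log2). Fdft1 had 8.86 and 8.96 log2 with conditioned medium and 8.87 and 8.94 log2 with EGF. Lss had 9.69 and 9.72 log2 with conditioned medium and 9.75 and 9.67 log2 with EGF. The groups of Fdft1 and Lss overlapped, and their differences were 0.00 log2 for Fdft1 and -0.00 log2 for Lss.

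After lanosterol, 8 measured genes demethylate, reduce and isomerize the sterol ring. After quantile normalization 1 was higher and 1 lower, against 16.5% and 14.6% of all genes tested. Dhcr7, the reductase that yields cholesterol, had 9.96 and 9.95 log2 with conditioned medium and 9.68 and 9.68 log2 with EGF. This was a 1.20-fold difference (0.27 ± 0.08 log2 SE, limma adjusted p = 0.024), but with median-centred arrays it was 0.03 log2. Hsd17b7, a keto-reductase of the demethylation complex, had 7.62 and 7.71 log2 with conditioned medium and 7.90 and 8.17 log2 with EGF. The groups did not overlap (-0.37 ± 0.12 log2 SE, limma adjusted p = 0.043), yet as deposited the difference was 0.03 log2, and a second, dimmer probe set gave -0.11 log2.

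The partners of Hsd17b7 in that demethylation complex did not pass the threshold. The oxidase Msmo1 had 9.96 and 10.11 log2 with conditioned medium and 9.98 and 10.06 log2 with EGF. The dehydrogenase Nsdhl had 8.79 and 8.88 log2 with conditioned medium and 8.78 and 8.80 log2 with EGF. In both the groups overlapped, with differences of 0.02 and 0.05 log2. The lanosterol demethylase Cyp51 (-0.11 log2), the sterol reductase Tm7sf2 (-0.00 log2), the isomerase Ebp (0.04 log2) and the desaturase Sc5d (-0.06 log2) did not pass either. The other Sc5d probe sets gave 0.31 and 0.45 log2, against -0.06 log2 for the brightest.

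**Figure D3:**
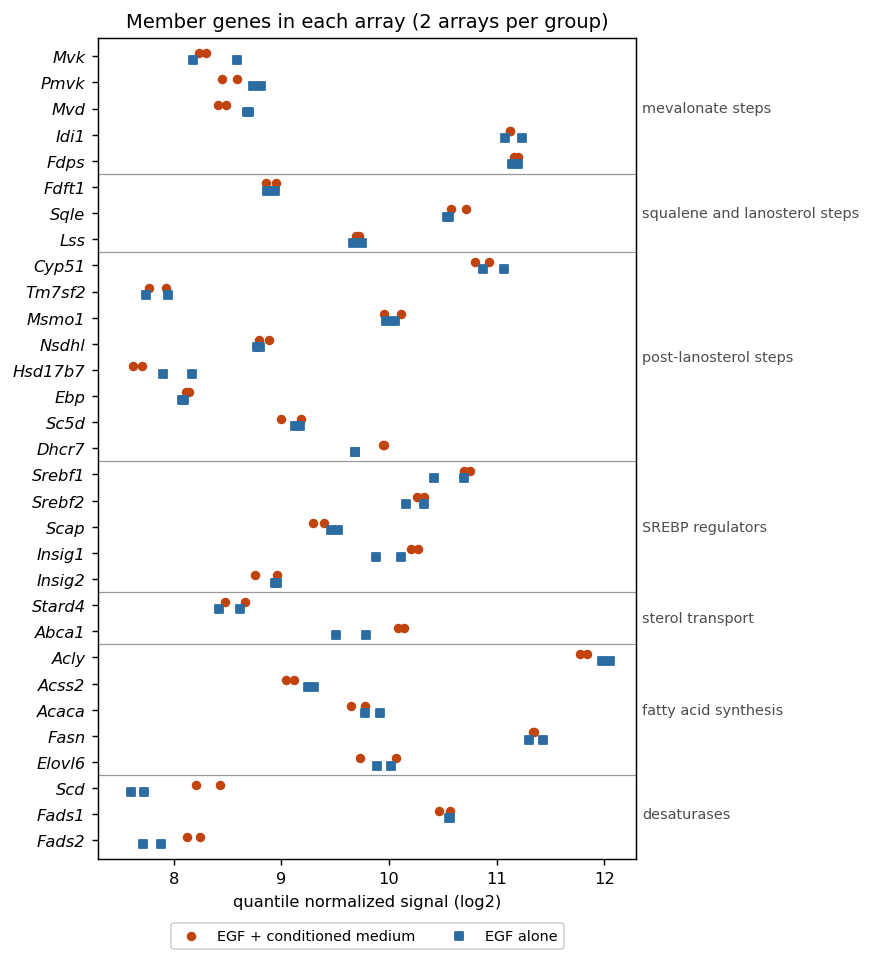
Quantile normalized signal (horizontal axis, log2) of each of the 31 members in the 2 conditioned-medium arrays (orange circles) and the 2 EGF arrays (blue squares), grouped by role. The groups do not overlap in 7 rows with conditioned medium higher (Scd, Fads2, Abca1, Dhcr7, Insig1, Sqle and Ebp). Nor do they in 6 rows with conditioned medium lower (Hsd17b7, Pmvk, Mvd, Acly, Acss2 and Scap). In the other rows they overlap.

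The regulators that sense sterols did not pass the threshold after quantile normalization (0 of 5). Srebf1 encodes the SREBP that mainly drives fatty acid genes, and it had 10.76 and 10.69 log2 with conditioned medium and 10.42 and 10.70 log2 with EGF. Srebf2, whose product mainly drives cholesterol genes, had 10.26 and 10.32 log2 with conditioned medium and 10.16 and 10.33 log2 with EGF. For both genes 1 EGF array reached the conditioned-medium range, and the differences were 0.16 ± 0.09 and 0.05 ± 0.08 log2 (SE). A second Srebf1 probe set gave -0.17 log2. Their activity depends on cleavage of the protein, which these arrays do not measure.

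Scap had 9.40 and 9.29 log2 with conditioned medium and 9.53 and 9.46 log2 with EGF. Insig1, itself an SREBP target, had 10.21 and 10.27 log2 with conditioned medium and 9.88 and 10.11 log2 with EGF. Neither gene's groups overlapped, but Scap at -0.15 ± 0.09 log2 and Insig1 at 0.24 ± 0.09 log2 (SE) missed the threshold (limma adjusted p = 0.22 and 0.064). Insig1 passed as deposited (0.56 log2) and was at -0.01 log2 with median-centred arrays. Insig2, the SREBP-independent Insig, had 8.96 and 8.75 log2 with conditioned medium and 8.96 and 8.94 log2 with EGF, and its groups overlapped.

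Of the 2 sterol carriers, Abca1 differed and Stard4 did not pass. Abca1, which loads cholesterol onto apolipoproteins at the cell surface and is a target of the sterol-activated LXR receptors, had 10.14 and 10.08 log2 with conditioned medium and 9.79 and 9.51 log2 with EGF. Both conditioned-medium arrays were higher, by 1.38-fold in the mean (0.46 ± 0.10 log2 SE, limma adjusted p = 0.0047). All 4 Abca1 probe sets were higher, by 0.29 to 0.74 log2, and with median-centred arrays the brightest was at 0.22 log2 and missed the threshold (limma adjusted p = 0.15). Stard4, a cytosolic sterol carrier, had 8.66 and 8.47 log2 with conditioned medium and 8.42 and 8.62 log2 with EGF. Macrophage-lineage cells express Abca1 too, and their part in its difference was not tested. The mean level of the 12 microglia markers on the array was 6.18 and 6.17 log2 with conditioned medium and 5.31 and 5.41 log2 with EGF.

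By their brightest probe sets, the 5 genes that make and elongate saturated fatty acids had differences below 0 after quantile normalization and above 0 as deposited. After quantile normalization the second probe sets of Elovl6 (0.19 log2), Acaca (0.05 log2, near the dim limit) and Fasn (0.04 log2) lay above 0. Acly, which frees acetyl-CoA from citrate for both pathways, had 11.84 and 11.78 log2 with conditioned medium and 11.98 and 12.05 log2 with EGF. Its groups did not overlap, at -0.21 ± 0.06 log2 (SE, limma adjusted p = 0.030), and as deposited the difference was 0.09 log2. Acss2, which makes acetyl-CoA from acetate, had 9.04 and 9.11 log2 with conditioned medium and 9.30 and 9.25 log2 with EGF. These groups did not overlap either, but -0.20 ± 0.09 log2 (SE) missed the threshold (limma adjusted p = 0.11).

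Fatty acid synthase, Fasn, had 11.34 and 11.35 log2 with conditioned medium and 11.30 and 11.43 log2 with EGF. The conditioned-medium arrays lay between the EGF arrays, and the interval of the difference ran from -0.18 to 0.13 log2. Acetyl-CoA carboxylase, Acaca, had 9.65 and 9.78 log2 with conditioned medium and 9.78 and 9.92 log2 with EGF. The elongase Elovl6 had 9.73 and 10.07 log2 with conditioned medium and 10.02 and 9.89 log2 with EGF. Neither passed the threshold, at -0.13 and -0.05 log2.

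Desaturases put double bonds into fatty acids, and here lay the largest difference of the set. Scd, which makes monounsaturated oleate and palmitoleate, had 8.21 and 8.43 log2 with conditioned medium and 7.61 and 7.73 log2 with EGF. Both conditioned-medium arrays stood above both EGF arrays, by 1.57-fold in the mean (0.65 ± 0.12 log2 SE, limma adjusted p = 0.0019). Scd rose under all 3 scalings, with 1.05 log2 as deposited and 0.48 log2 with median-centred arrays. The call was lost without conditioned-medium replicate 2 (0.54 log2, adjusted p = 0.060) and without EGF replicate 1 (0.59 log2, adjusted p = 0.054). Scd2, the brain-type paralog and no member of the set, had 13.16 and 13.29 log2 with conditioned medium and 13.35 and 13.22 log2 with EGF, and its groups overlapped.

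Fads2 and Fads1 act in turn on polyunsaturated fatty acids, and Fads2 is the entry step towards docosahexaenoic acid, a lipid of photoreceptor membranes. Fads2 had 8.12 and 8.25 log2 with conditioned medium and 7.71 and 7.88 log2 with EGF. The groups did not overlap, at 1.31-fold (0.39 ± 0.11 log2 SE, limma adjusted p = 0.025), and with median-centred arrays 0.22 log2 missed the threshold (limma adjusted p = 0.16). Fads1 had 10.47 and 10.57 log2 with conditioned medium and 10.56 and 10.56 log2 with EGF. The Fads1 groups overlapped, and its interval ran from -0.21 to 0.12 log2.

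Over all 31 members the groups did not overlap in 7 higher and 6 lower genes, where 33.6% and 32.6% of all genes did not overlap in these directions. Of the 17 members with several probe sets, 16 had more than 1 above the dim limit, and in 11 of these the probe sets lay on both sides of 0. Scd, Fads2, Dhcr7 and Acly had a single probe set.

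Promoter windows were looked at because SREBPs act with the factor NF-Y at many of these genes. RefSeq windows of assembly GRCr8, from 250 bases before to 50 bases after the gene start, were matched by gene identifier for 24 of the 31 members. On either strand, the NF-Y box CCAAT was found in 18 of 24 members, in 37.8% of tested genes with a window and in 37.7% of all 27457 windows. The Sp1 box GGGCGG was found in 20 of 24 members, in 63.2% of tested genes and in 34.9% of all windows. The E-box CACGTG was found in 4 of 24 members, in 9.55% of tested genes and in 6.65% of all windows. The sterol regulatory element TCACNCCAC was found in 0 of 24 windows (1.13% of all). Its shorter core CACCCCAC, which overlaps it in part, was found in 1, that of Ebp (2.57% of all). Only exact matches within the windows were counted, so elements that differ from these letters or lie farther out were not looked for. CCAAT was in 0 of 4 members that were higher after quantile normalization, in 2 of 2 that were lower and in 16 of 18 that did not pass. Over all tested genes with a window those shares were 38.2%, 35.1% and 38.2%, which lie close together.

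The windows of the 3 desaturases and of the 2 members lower after quantile normalization are printed as examples. Scd and Fads2, higher after quantile normalization, hold no CCAAT, while Fads1, Hsd17b7 and Acly hold it. They run 5' to 3' in the gene's direction, and capitals mark the NF-Y box, the Sp1 box and the E-box on either strand. These 5 were picked after the values were seen, and a link between CCAAT and the differences was not tested.
Scd, chr1:253231682-253231981, minus strand: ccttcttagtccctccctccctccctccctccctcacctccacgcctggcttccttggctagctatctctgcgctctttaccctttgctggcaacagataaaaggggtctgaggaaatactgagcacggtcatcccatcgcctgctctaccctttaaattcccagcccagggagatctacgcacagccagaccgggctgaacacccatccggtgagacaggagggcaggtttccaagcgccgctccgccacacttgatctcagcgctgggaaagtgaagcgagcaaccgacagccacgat
Fads2, chr1:216171984-216172283, minus strand: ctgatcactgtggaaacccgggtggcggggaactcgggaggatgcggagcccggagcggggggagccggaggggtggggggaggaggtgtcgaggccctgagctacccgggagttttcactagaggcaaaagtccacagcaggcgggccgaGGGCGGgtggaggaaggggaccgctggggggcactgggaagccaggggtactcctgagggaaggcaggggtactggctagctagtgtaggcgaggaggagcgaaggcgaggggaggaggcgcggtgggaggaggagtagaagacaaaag
Fads1, chr1:216252442-216252741, plus strand: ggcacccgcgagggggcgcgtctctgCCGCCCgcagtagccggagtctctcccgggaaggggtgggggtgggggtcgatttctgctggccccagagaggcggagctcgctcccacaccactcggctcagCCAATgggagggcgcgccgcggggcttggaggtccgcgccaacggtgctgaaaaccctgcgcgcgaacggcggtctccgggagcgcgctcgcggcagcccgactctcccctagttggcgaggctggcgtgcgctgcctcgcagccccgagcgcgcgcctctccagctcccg
Hsd17b7, chr13:84722705-84723004, minus strand: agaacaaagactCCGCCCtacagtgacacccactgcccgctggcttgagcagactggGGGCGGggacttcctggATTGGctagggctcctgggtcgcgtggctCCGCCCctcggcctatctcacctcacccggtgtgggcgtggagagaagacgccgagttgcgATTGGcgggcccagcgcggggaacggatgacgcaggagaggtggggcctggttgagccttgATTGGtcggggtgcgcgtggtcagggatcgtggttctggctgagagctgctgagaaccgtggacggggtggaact
Acly, chr10:85963582-85963881, minus strand: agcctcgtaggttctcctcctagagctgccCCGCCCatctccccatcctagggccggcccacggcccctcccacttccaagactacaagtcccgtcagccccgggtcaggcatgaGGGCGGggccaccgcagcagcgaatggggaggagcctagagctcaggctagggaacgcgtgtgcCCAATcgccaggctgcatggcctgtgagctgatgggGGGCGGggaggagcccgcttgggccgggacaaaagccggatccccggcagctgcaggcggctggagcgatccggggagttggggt
Hsd17b7 holds 3 copies of the NF-Y box, and Fads1 and Acly hold 1 each. The Scd window holds none of the 3 boxes, and the Fads2 window holds a single Sp1 box.

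Genes of lipid handling around the synthesis steps were read from lists of textbook roles. Of 13 tested genes of sterol transport, storage and efflux, 4 rose and 1 fell, where 9.12% of all genes rose and 1.78% fell, and the list's median difference was 0.04 log2. Npc2, which carries cholesterol out of lysosomes, had 11.30 and 11.10 log2 with conditioned medium and 10.40 and 10.35 log2 with EGF. It rose by 0.83 ± 0.08 log2 (SE, limma adjusted p = 4.1e-05). Apoe, the main apolipoprotein of glia, rose by 0.68 ± 0.08 log2 (SE). With the mean of its 2 probe sets the difference was 0.13 log2 and the call was lost. The cholesterol acyltransferases Lcat (0.93 ± 0.21 log2 SE) and Soat1 (0.65 ± 0.20 log2 SE, named after its value was seen) also rose. The Lcat signal was dim in the EGF arrays, at 5.06 and 5.01 log2 as deposited against the limit of 4.77 log2. The call of Lcat was lost when either conditioned-medium array or EGF replicate 2 was left out. The call of Soat1 under all 3 scalings was lost when conditioned-medium replicate 2 or either EGF array was left out, and with all 4 arrays also without the filter on dim probe sets and without the intensity trend.

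Abcg4, a neuronal sterol exporter, fell in this list. It had 7.67 and 7.85 log2 with conditioned medium and 8.73 and 8.62 log2 with EGF, at -0.91 ± 0.11 log2 (SE). Its call under all 3 scalings was lost whichever single array was removed, and with all 4 arrays also without the intensity trend and under the replicate block, although its quantile normalized difference passed in each of these (adjusted p = 2.9e-04 with the block). Abcg1, its widely expressed relative, had 11.08 and 10.93 log2 with conditioned medium and 11.00 and 11.05 log2 with EGF. The LXR receptors Nr1h2 (-0.04 ± 0.11 log2 SE) and Nr1h3 (-0.39 ± 0.31 log2 SE, near the dim limit) did not pass. Apoe and Npc2 are also abundant in microglia, and the part of these cells in their differences was not tested. The mean level of the 12 microglia markers was 6.18 and 6.17 log2 with conditioned medium and 5.31 and 5.41 log2 with EGF.

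Of 18 further genes of fatty acid synthesis and desaturation that were tested, 2 rose and 0 fell (9.12% and 1.78% of all genes), while the quantile normalized values gave 5 higher and 4 lower genes (16.5% and 14.6% of all genes). Elovl5, an elongase of polyunsaturated fatty acids, had 11.02 and 11.13 log2 with conditioned medium and 10.41 and 10.49 log2 with EGF and rose by 0.62 ± 0.08 log2 (SE, limma adjusted p = 1.5e-04). Elovl5 passed the threshold under each of the 11 alternatives run, but its call under all 3 scalings was lost without conditioned-medium replicate 2 and without the intensity trend. The elongase Elovl2, which acts on longer polyunsaturated chains, had 10.04 and 9.93 log2 with conditioned medium and 10.63 and 10.77 log2 with EGF. At -0.71 ± 0.08 log2 (SE) Elovl2 was lower after quantile normalization and missed the threshold as deposited (-0.39 log2, limma adjusted p = 0.051). These elongases of the same fatty acid series thus pointed opposite ways after quantile normalization. Thrsp, a lipogenic nuclear protein, rose by 0.69 ± 0.11 log2 (SE), and the acyl-CoA synthetase Acsl1 (-0.68 ± 0.09 log2 SE) was lower after quantile normalization but missed the threshold as deposited (-0.34 log2).

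The counts of the remaining lists are read against the same shares of all genes. Of 7 further tested genes of sterol and isoprenoid synthesis, 0 rose or fell under all 3 scalings, and after quantile normalization Lbr was higher (0.46 ± 0.14 log2 SE) and Fntb lower (-0.88 ± 0.13 log2 SE). Lbr is a lamin-binding sterol reductase of the nuclear envelope, and Fntb is the beta subunit of protein farnesyltransferase. Of 7 genes of SREBP processing and sterol sensing, 0 rose or fell, and after quantile normalization Mylip (0.35 ± 0.10 log2 SE), an LXR-induced ubiquitin ligase, and Tmem97 (0.25 ± 0.09 log2 SE), a sterol-regulated membrane protein, were higher. Of 12 genes of fatty acid oxidation 1 rose, where 9.12% of all genes rose, namely the acyl-CoA dehydrogenase Acadl, which had 9.69 and 9.52 log2 with conditioned medium and 8.70 and 8.93 log2 with EGF (0.79 ± 0.11 log2 SE). Cpt1a (0.44 ± 0.09 log2 SE) and Decr1 (0.29 ± 0.07 log2 SE) were higher and the coactivator Ppargc1a lower (-0.66 ± 0.15 log2 SE) after quantile normalization, in all 4 higher and 1 lower of the 12, against 16.5% and 14.6% of all genes.

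**Figure D4:**
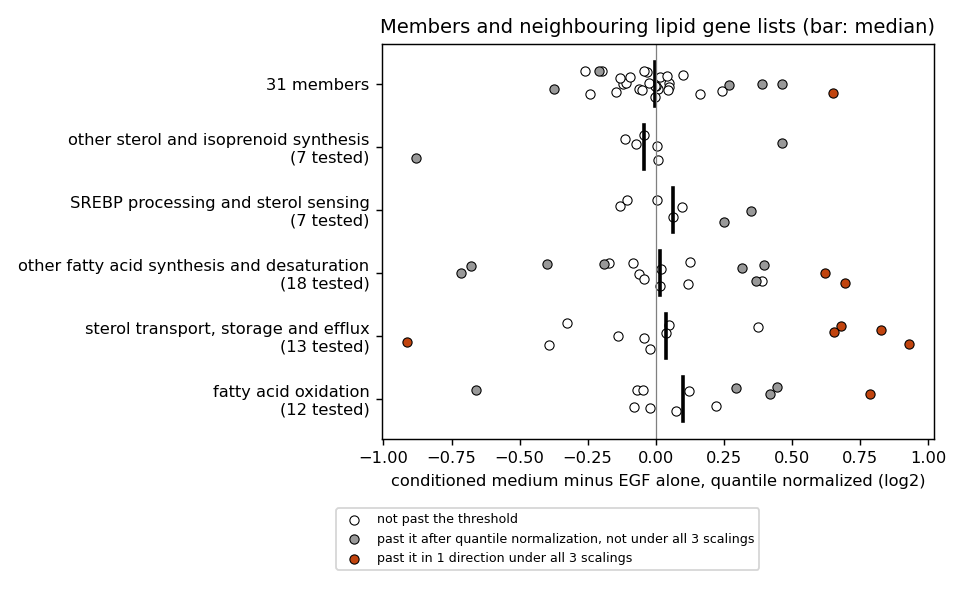
Differences between conditioned medium and EGF alone (horizontal axis, quantile normalized log2) of the 31 members and of 5 neighbouring lipid gene lists, 1 point per tested gene with vertical jitter and a bar at the median. White points did not pass the threshold, grey points passed after quantile normalization but not under all 3 scalings, and orange points passed under all 3. The members hold 1 orange point, Scd, and the list of sterol transport, storage and efflux holds 5.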

How the data were processed

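The authors summarised the arrays by RMA in GenePattern and deposited log2 values, per the labels and the series' design text. The RMA version and normalization option are not stated there. The deposited medians differed between arrays, so the 31099 probe sets were quantile normalized here (R 4.3.3, limma 3.58.1). Deposited and median-centred values were alternatives.

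Of the probe sets, 20832 had 1 gene symbol in the platform's annotation table, 436 several and 9831 none. Each gene was its brightest probe set over 4 arrays, and genes in the lowest 30% of probe set means were left out. The 4 arrays were fitted with lmFit and eBayes with an intensity trend, two-sided and without a block (prior 8.71 degrees of freedom beside 2 residual ones after quantile normalization, and infinite as deposited, where the spread comes wholly from the trend). The number of arrays limits the precision. The fit was tested on simulated data.

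Members, gene lists and scalings were chosen with earlier results of these data known. All members are named, and of the other lists up to 4 called genes with the smallest p. Named outside this rule are Soat1 and, not past the threshold after quantile normalization, Scd2, Abcg1, Nr1h2 and Nr1h3. The rule for printing promoters, a sterol regulatory element in a gene that rose or fell, selected none. No label ties replicate numbers to embryo pools. Same-numbered arrays' deviations from their group means correlated across genes at -0.03 (quantile normalized) and -0.12 (deposited).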

Additional observations from a re-analysis of the deposited data

How the results depend on the processing

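The 4 higher and 2 lower members after quantile normalization became 7 and 0 as deposited, 1 and 14 with median-centred arrays, and 1 and 0 without an intensity trend. Without the filter on dim probe sets and with the mean of all probe sets of a gene 1 member was lower. Leaving out any 1 array gave 0 to 1 higher and 0 to 0 lower members, which has fewer arrays to test with, and 0 to 1 members risen under all 3 scalings. With the mean of all probe sets 2 members, Scd and Abca1, rose under all 3 scalings. Over all genes, the 1891 higher and 1673 lower became 4643 and 205 as deposited, 1176 and 3704 with median-centred arrays, and 804 to 1175 and 708 to 853 with an array left out. The 1048 genes risen and 205 fallen under all 3 scalings became 549 to 904 and 43 to 104 with an array left out, and the fallen 130 without the trend. With the replicate number as a block 28 genes fell under all 3 scalings and 1 gene of SREBP processing was higher, in place of 2, and the block moved no count of members. With crossed numbers, chosen after seeing the data, 441 genes fell. Elsewhere, as deposited, 0 further sterol genes were lower, 8 further fatty acid genes were higher and 0 lower, and 7 oxidation genes were higher and 0 lower. With median-centred arrays 0 further sterol genes were higher, 0 SREBP processing genes higher and 2 lower, 2 further fatty acid genes higher, 3 transport genes lower, and 1 oxidation gene higher and 3 lower. Without the filter 0 further sterol genes were higher. Without the trend the higher counts were 0 further sterol, 0 SREBP processing, 3 fatty acid and 2 oxidation genes. With an array left out they were 0 to 0 further sterol, 0 to 0 SREBP processing, 2 to 3 fatty acid, 2 to 4 transport and 1 to 3 oxidation genes, and 0 to 1 oxidation genes were lower.

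Small differences changed sign. As deposited these were Lss (0.32), Cyp51 (0.20), Idi1 (0.28), Mvd (0.13), Mvk (0.26), Pmvk (0.10), Sc5d (0.28), Hsd17b7 (0.034), Tm7sf2 (0.41), Insig2 (0.26), Scap (0.18), Fasn (0.30), Acaca (0.20), Fads1 (0.28), Acly (0.086), Elovl6 (0.28) and Acss2 (0.14) log2. With median-centred arrays they were Sqle (-0.16), Fdps (-0.25), Fdft1 (-0.22), Msmo1 (-0.23), Nsdhl (-0.16), Ebp (-0.14), Insig1 (-0.0061), Srebf1 (-0.095), Srebf2 (-0.20) and Stard4 (-0.15) log2. With the mean of all probe sets they were Lss (0.014), Fdft1 (-0.035), Mvk (0.22), Sc5d (0.23), Nsdhl (-0.048), Srebf1 (-0.0021), Srebf2 (-0.077), Stard4 (-0.13), Fasn (0.0089) and Elovl6 (0.068) log2. Leaving out 1 array gave ranges across 0 for Lss -0.045 to 0.036, Idi1 -0.11 to 0.048, Fdps -0.017 to 0.032, Fdft1 -0.048 to 0.051, Mvk -0.32 to 0.082, Sc5d -0.15 to 0.032, Msmo1 -0.061 to 0.091, Tm7sf2 -0.10 to 0.1, Insig2 -0.20 to 0.007, Srebf2 -0.035 to 0.13, Stard4 -0.052 to 0.14, Fasn -0.093 to 0.042, Fads1 -0.094 to 0.0085 and Elovl6 -0.22 to 0.12 log2. Beside the scalings themselves the cause was not tested. Dim signal limited Nr1h3 and the genes below the limit, and Lcat was dim in the EGF arrays.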
